A study of Mus musculus with 4 samples.

Results

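Pttg1, Unc13c, Cnmd and Rarres1 are 4 named genes that read higher in the spinal cord of mice that lack Sip1 in cells of the oligodendrocyte lineage. They were chosen by a difference already seen in these arrays, as the genes in the symbol field of the authors' deposited table whose mean log2 value was higher in the 2 Sip1 cKO arrays than in the 2 control arrays. The table lists 420 of the 35557 clusters on the array, a cluster being a set of probes that the array reports as 1 value. Clusters outside the table had no annotation here, so any control probe sets among them stay in every share of all clusters. Of those 420 clusters 22 are higher in Sip1 cKO and 398 lower, and the 4 genes are 4 of the 22. Cnmd appears in the table under its older symbol, Lect1. The difference between the groups is therefore the basis of the choice, and it is given here as a description. Counts from a fit over all clusters are given later as background, and nothing about the 4 genes is read from them.

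Sip1 (current symbol Zeb2) is a DNA-binding repressor with zinc fingers, known in oligodendrocytes as a factor needed for their maturation and for myelin. The 2 Sip1 cKO samples were spinal cords of Sip1 c/c;Olig1-Cre mice, in which both copies of the gene are floxed, taken at postnatal day 14. The 2 control samples were cords of Sip1 c/+;Olig1-Cre littermates of the same age, with 1 floxed copy. All animals had a mixed C57 and 129 background and carried the Cre recombinase. Since Olig1 drives the Cre, cells of the cord outside the Olig1 lineage keep their Sip1, and the controls themselves carry a single intact copy in the cells that express the Cre. The labels call the 2 arrays of each group biological replicates.

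The 4 genes belong to unrelated pathways. Pttg1 encodes securin, which holds back the protease separase until the sister chromatids are ready to part in mitosis. Unc13c encodes Munc13-3, a protein of the presynaptic terminal that prepares synaptic vesicles for fusion and is best known from the cerebellum. Cnmd encodes chondromodulin, a membrane glycoprotein of cartilage whose released part inhibits the growth of blood vessels. Rarres1 was found as a gene induced by a retinoid in human skin and encodes a membrane protein related to latexin, an inhibitor of carboxypeptidases.

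ZEB proteins bind DNA at the E-box letters CACCT, often within CACCTG. The 250 bases before the transcription start of each gene are shown because they differ in these letters. They come from RefSeq in the build GRCm38.p6, run 5′ to 3′ on the strand of the gene (the minus strand for all 4), and carry CACCT or its reverse complement AGGTG, and where present CACCTG or CAGGTG, in capitals. A CACCTG match always holds a CACCT match, and neighbouring matches can touch.
Pttg1, chr11:43425982-43426231: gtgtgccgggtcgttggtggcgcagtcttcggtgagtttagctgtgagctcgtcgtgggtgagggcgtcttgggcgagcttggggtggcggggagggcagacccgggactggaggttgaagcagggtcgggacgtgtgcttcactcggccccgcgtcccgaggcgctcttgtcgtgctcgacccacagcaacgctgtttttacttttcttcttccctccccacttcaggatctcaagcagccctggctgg
Unc13c, chr9:73969038-73969287: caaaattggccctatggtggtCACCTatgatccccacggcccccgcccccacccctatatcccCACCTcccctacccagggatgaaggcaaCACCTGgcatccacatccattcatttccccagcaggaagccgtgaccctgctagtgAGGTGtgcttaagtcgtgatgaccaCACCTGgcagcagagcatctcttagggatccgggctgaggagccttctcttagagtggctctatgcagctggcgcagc
Cnmd, chr14:79662184-79662433: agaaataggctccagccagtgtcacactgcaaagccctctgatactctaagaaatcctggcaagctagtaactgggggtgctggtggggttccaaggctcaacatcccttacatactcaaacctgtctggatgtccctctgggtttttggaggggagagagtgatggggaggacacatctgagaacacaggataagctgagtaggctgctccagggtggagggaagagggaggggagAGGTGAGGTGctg
Rarres1, chr3:67515524-67515773: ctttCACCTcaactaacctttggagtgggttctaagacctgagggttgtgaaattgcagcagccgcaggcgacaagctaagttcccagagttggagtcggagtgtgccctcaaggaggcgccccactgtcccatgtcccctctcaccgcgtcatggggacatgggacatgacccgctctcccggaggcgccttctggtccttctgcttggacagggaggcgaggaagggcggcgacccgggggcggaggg

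The window of Unc13c held 5 matches to CACCT or its reverse complement, 2 of them within CACCTG. At least 5 matches to the shorter letters occurred in 0.174% of the 32851 RefSeq promoter windows of this length, and at least 2 matches to the longer ones in 2.06%. The window of Cnmd held 2 of the shorter matches, side by side 13 and 8 bases before the start, and 13.8% of all windows held at least 2. The window of Rarres1 held 1, 246 bases before the start, and that of Pttg1 held 0. At least 1 shorter match was present in 3 of the 4 windows and in 46.0% of all windows. At least 1 longer match was present in 1 of the 4 windows and in 17.2% of all windows. The shares for at least 5 and at least 2 matches use the genes' own counts as thresholds, so they do not test rarity. The matches describe these letters only, and binding of Sip1 was not measured. The windows also differed in CpG pairs, with 20 for Pttg1, 14 for Rarres1, 6 for Unc13c and 0 for Cnmd.

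The targeted gene, Zeb2, read 8.61 and 8.66 in Sip1 cKO, against 10.29 and 10.47 in the controls, so each array followed its label. All values are log2 values after RMA, the authors' normalization between arrays. Array medians lay between 6.62 and 6.70, and replicates correlated at Pearson's r = 0.993 in Sip1 cKO and r = 0.990 in the controls, taken over clusters. The median log2 difference of all 35557 clusters was -0.0073. Of the 9 cell type lists, that of myelinating oligodendrocytes alone had genes named by a table row with 1 symbol. These were 5 of its 6 genes (Mog, Mag, Mobp, Cldn11 and Opalin), and their mean log2 level was 5.76 and 6.93 in Sip1 cKO, against 12.07 and 12.09 in the controls. Values of these 5 genes moved with the groups, in a table that keeps only clusters with a fold of 1.45 or more. A listed gene that changed less could not appear in it, and most clusters that rose as much as Rarres1 have no row either. Any part of oligodendrocyte RNA in the higher values of the 4 genes was not tested. In tissue RNA, fewer cells of a type and less RNA per cell cannot be told apart. Markers of neurons, astrocytes, oligodendrocyte progenitors, microglia, meninges, cartilage, dividing cells, blood and vessels were named in no table row. These markers were not analysed here.

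Pttg1 had the largest mean difference of the 4 genes. It read 9.03 and 8.48 in Sip1 cKO, against 8.06 and 6.90 in the controls. Both Sip1 cKO arrays lay above both control arrays, with 0.42 between the lower Sip1 cKO array and the higher control array. The group means were 8.76 ± 0.39 in Sip1 cKO and 7.48 ± 0.82 in the controls (SD, n = 2 each), a log2 difference of 1.28 or 2.42-fold. The control arrays alone were 1.16 apart, nearly as far as the group means, and a gap that wide was exceeded or equalled by few clusters, since 99.2% had a smaller one. The Sip1 cKO arrays were 0.55 apart. Without control replicate 2, the low one, the difference was 0.70, and without control replicate 1 it was 1.86.

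Unc13c was the gene whose difference stood farthest from its replicate spread. Its values were 8.32 and 7.89 in Sip1 cKO and 7.21 and 6.79 in the controls, with no overlap. The lower Sip1 cKO array was 0.69 above the higher control array. Means were 8.11 ± 0.30 in Sip1 cKO and 6.999 ± 0.29 in the controls (SD, n = 2 each), a log2 difference of 1.11 or 2.15-fold. Replicate gaps were much alike, 0.42 in both groups, and 91.8% of all clusters had a smaller gap in Sip1 cKO and 87.5% in the controls. With any 1 array left out the difference stayed between 0.90 and 1.32. The nearest pair of arrays was thus separated by more than either replicate gap, which held for Unc13c only among the 4 genes.

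Cnmd combined a very narrow Sip1 cKO group with a wide control group. Its values were 7.88 and 7.86 in Sip1 cKO, a gap of 0.02, against 6.24 and 7.38 in the controls, a gap of 1.14. The groups did not overlap, and the higher control array lay 0.47 below the lower Sip1 cKO array. Means were 7.87 ± 0.02 in Sip1 cKO and 6.81 ± 0.81 in the controls (SD, n = 2 each), a log2 difference of 1.06 or 2.08-fold. Only 12.1% of clusters had a smaller Sip1 cKO gap, while 99.2% had a smaller control gap. Without control replicate 1 the difference was 0.48, and without control replicate 2 it was 1.63.

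Rarres1 differed between the groups through a single array. It read 7.11 and 7.02 in Sip1 cKO, against 5.58 and 7.13 in the controls. Control replicate 2 was above both Sip1 cKO arrays, by 0.02 and 0.11, so the groups overlapped. Means were 7.06 ± 0.06 in Sip1 cKO and 6.35 ± 1.10 in the controls (SD, n = 2 each), a log2 difference of 0.71 or 1.64-fold. The gap of 1.55 between the control arrays was more than the difference itself, and 99.7% of clusters had a smaller one. Without control replicate 1 the sign turned, to -0.065, and without control replicate 2 the difference was 1.49. Of the 22 table rows higher in Sip1 cKO, Rarres1 was the only 1 whose sign turned when control replicate 1 was left out, and 0 turned without control replicate 2.

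**Figure D1:**
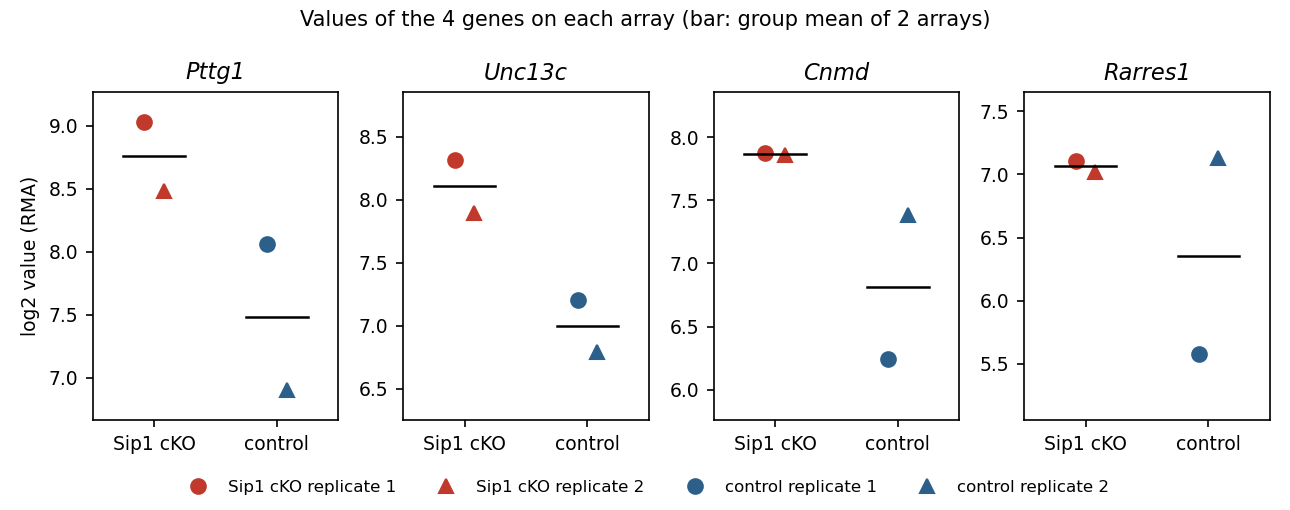
Log2 value of each gene on each array, with circles for replicate 1, triangles for replicate 2 and a bar at the mean of the 2 arrays of a group. Each panel has its own vertical range of equal length. The groups are separate for Pttg1, Unc13c and Cnmd, and for Rarres1 the control array at 7.13 lies above both Sip1 cKO arrays.

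The control arrays did not differ the same way for all 4 genes. Control replicate 2 was the lower control array for Pttg1 and Unc13c, and control replicate 1 was the lower for Cnmd and Rarres1. In Sip1 cKO, replicate 2 was the lower array for all 4 genes. The median gap over all clusters was 0.11 between the Sip1 cKO arrays and 0.15 between the control arrays. Pttg1, Cnmd and Rarres1 were among 6 of the 22 higher rows with a control gap of at least 1.

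**Figure D2:**
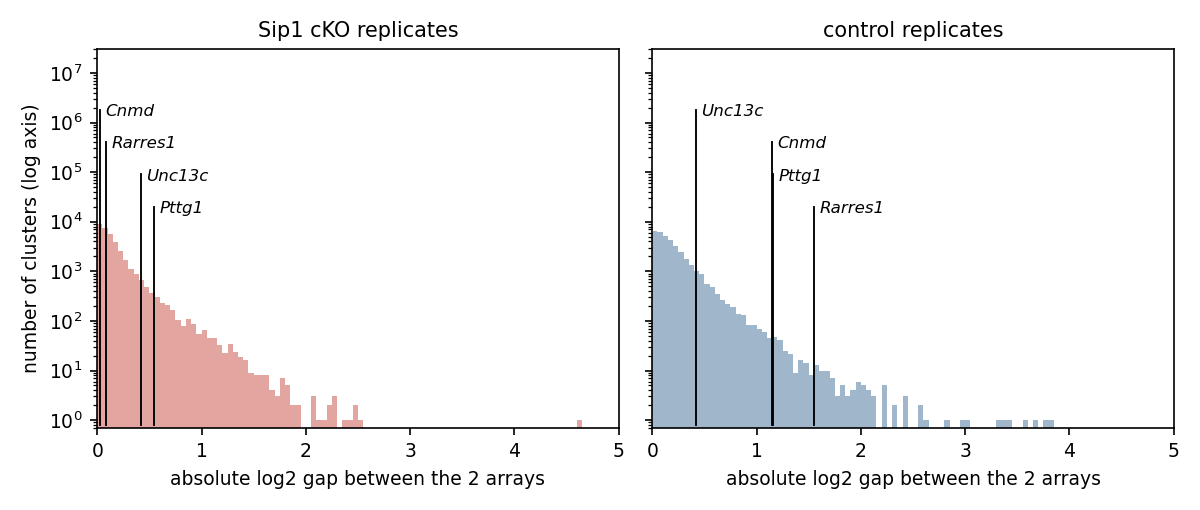
Number of clusters (log axis) by the absolute log2 gap between the 2 arrays of a group, for Sip1 cKO at left and control at right. Vertical lines mark the 4 genes, and their heights carry no value. The control gaps of Pttg1, Cnmd and Rarres1, at 1.16, 1.14 and 1.55, lie in the tail, and that of Unc13c, at 0.42, lies nearer the bulk.

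**Figure D3:**
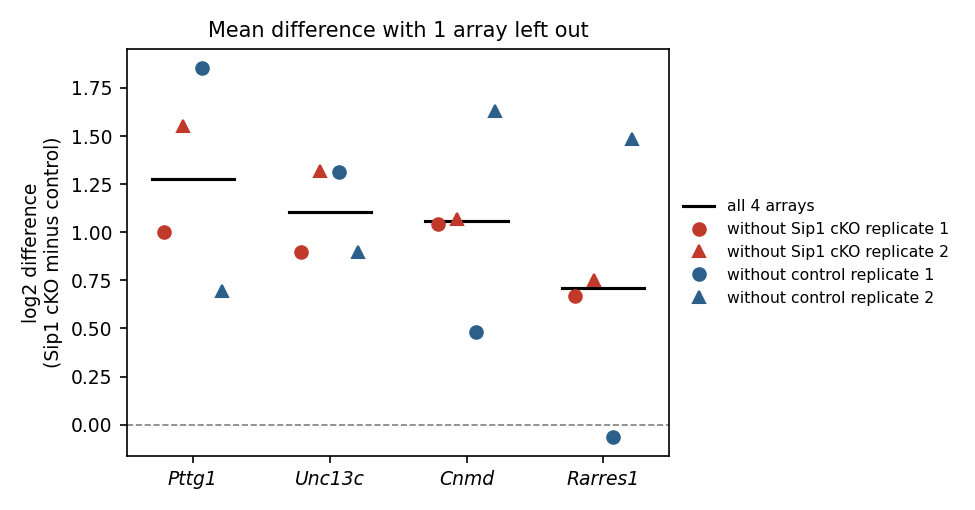
Mean log2 difference of Sip1 cKO minus control for each gene with all 4 arrays (bar) and with each array left out in turn (symbols). The values for Unc13c stay within 0.90 to 1.32, whereas Rarres1 lies at -0.065 without control replicate 1.

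Differences at least as large as that of Pttg1 were found in 93 of the 35557 clusters. The same count was 127 for Unc13c, 153 for Cnmd and 418 for Rarres1, which is 1.18% of all clusters. Only 16 of the 22 higher table rows reached the difference of Rarres1, so most of those 418 clusters have no row. In the limma fit over all clusters 0 of the 4 genes passed an adjusted p under 0.05. Of all clusters 0.219% passed as higher, which is 78, and 24 passed with identical rows tested once. At an unadjusted p under 0.05 in that fit 3 of the 4 genes passed, Rarres1 being the exception, beside 7.95% of clusters higher at that level. For 3 of the 4 genes both Sip1 cKO arrays lay above both control arrays, as they did for 24.8% of all clusters. The same contrast chose the genes, so nothing is read from these counts. No other cluster had the same values as any of the 4 genes on all arrays.

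The authors' deposited table gives smaller differences. Its fold equals 2 to the power of the difference of its centred log2 means in 420 of 420 rows (within 0.1%), so it need not equal the ratio of the intensities beside it. In the authors' deposited table the mean intensity of Pttg1 was 453.5 in Sip1 cKO and 209.8 in control, with a fold of 2.28. For Unc13c the authors' deposited table has 296.2 in Sip1 cKO and 142.9 in control, with a fold of 2.07. The authors' deposited table gives Cnmd 244.3 in Sip1 cKO and 135.1 in control, with a fold of 1.92. Rarres1 has 144.2 in Sip1 cKO and 105.7 in control in the authors' deposited table, an intensity ratio of 1.36. Its fold of 1.497 in the authors' deposited table was near the cut-off of 1.45. The intensity ratios of the other genes from the authors' deposited table were 2.16 for Pttg1, 2.07 for Unc13c and 1.81 for Cnmd. The order of the 4 genes is the same by the array values, by the table's fold and by its intensity ratio.

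Among the other 18 rows higher in Sip1 cKO, 3 carried symbols, and all 3 lay just below Rarres1. A row with 7 symbols, Hn1l (now Jpt2), LOC100038847 (now Gm10406), LOC100036568 (now Gm3373), LOC544988, B930046C15Rik and a pair of Ensembl gene models, was higher by 0.67 on the log2 scale. It read 7.39 and 7.16 in Sip1 cKO, against 6.70 and 6.51 in the controls, and its titles include alpha7-takusan, a member of a large mouse gene family. A row with 5 of the same symbols, without Hn1l and LOC100038847, read 8.34 and 8.26 in Sip1 cKO, against 7.74 and 7.56 in the controls, a difference of 0.65. Which of the listed genes these 2 rows measure cannot be told apart. LOC100043546, titled as similar to a DnaJ-like protein and a pseudogene (Gm15542) in RefSeq, read 9.24 and 9.16 in Sip1 cKO and 8.66 and 8.44 in the controls, also a difference of 0.65. The groups did not overlap in any of the 3 rows, and their control gaps were 0.18 to 0.22.

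The remaining 15 rows carried no symbol, and 12 of them differed by at least as much as Rarres1. No row other than the 4 genes therefore combined a symbol with a difference of 0.71 or more. Clusters 10582916, at 1.32, and 10582888, at 1.25, stood on either side of Pttg1. Clusters 10398382, at 1.13, and 10582882, at 1.07, stood on either side of Unc13c, and cluster 10582882 also came next above Cnmd. Cluster 10398434, at 0.72, was just above Rarres1 and cluster 10402512, at 0.69, just below. In cluster 10398434 the Sip1 cKO arrays read 6.22 and 6.25 and the control arrays 5.53 and 5.51, so that nearly the same mean difference as for Rarres1 came with replicate gaps of 0.04 and 0.02. Of the 22 rows 21 had groups that did not overlap, and Rarres1 was the exception.

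**Figure D4:**
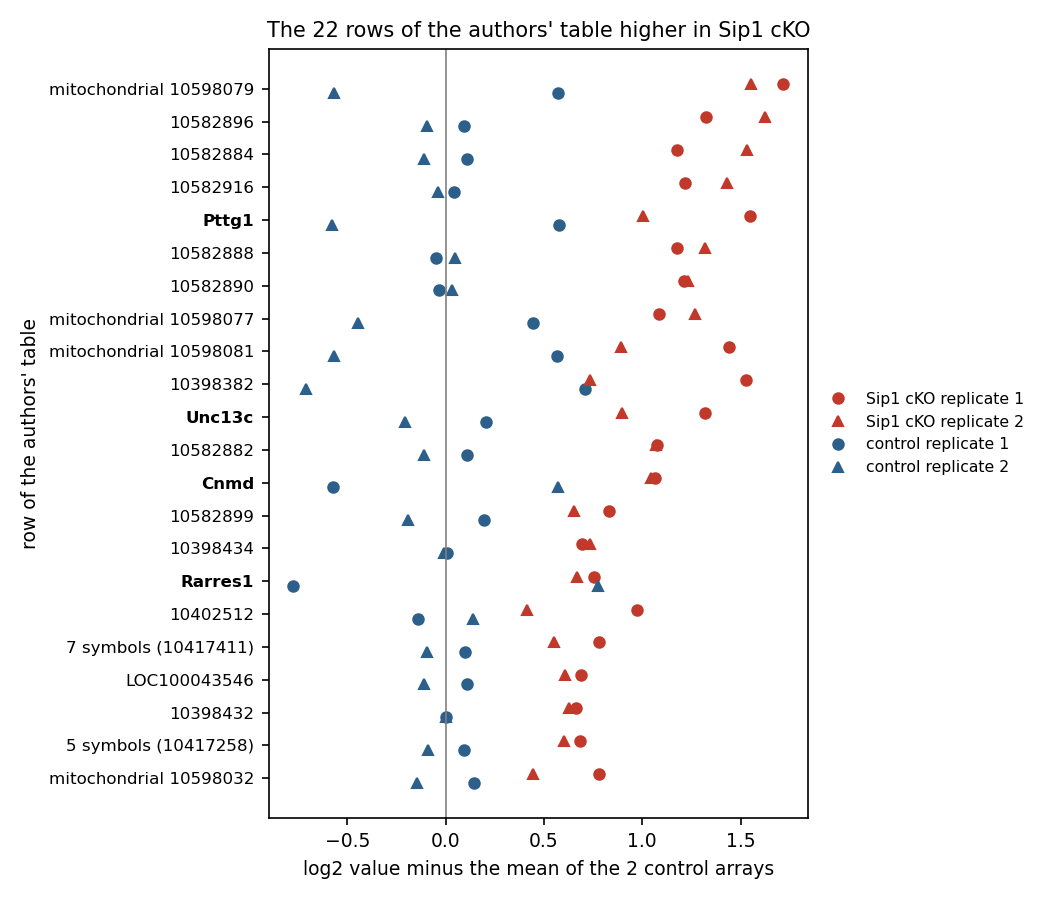
Log2 value minus the control mean of each row of the authors' table that was higher in Sip1 cKO, ordered by mean difference, with the 4 genes in bold. Circles are replicate 1 and triangles replicate 2. Rarres1 is the row in which a control array lies to the right of both Sip1 cKO arrays.

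Likeness was measured as the root mean square distance, in log2 units over the 4 arrays, between values taken as deviations from each row's own mean. Among table rows with 1 symbol, Cnmd and Rarres1 were each other's nearest at 0.23. Both have a low control replicate 1 beside 3 higher arrays. For Pttg1 the nearest were Unc13c at 0.28, LOC100043546 at 0.49 and Cnmd at 0.84. For Unc13c they were LOC100043546 at 0.27, Pttg1 at 0.28 and Cnmd at 0.57. After each other, Cnmd and Rarres1 had LOC100043546 (0.52 for Cnmd and 0.63 for Rarres1) and Unc13c (0.57 for Cnmd and 0.73 for Rarres1). Only 5 rows with 1 symbol were higher in Sip1 cKO, so these neighbours come from a small set.

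Other genes of the pathways could not be set beside them. Of 100 genes on 4 lists, 0 were named in a row of the authors' table. The lists held 25 genes each, for sister chromatid separation with Pttg1, vesicle priming with Unc13c, cartilage with Cnmd and retinoic acid response with Rarres1. Separase (Espl1), Unc13a, Tnmd, the relative of Cnmd in tendon, and latexin (Lxn) were among them and were not analysed here. A gene not named there may have differed by less than the table's cut-off, been removed by its filter or carried another name. It may also lie among the 26 table rows without a symbol, or have no cluster on the array. These cases cannot be told apart.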

How the data were processed

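Per the file headers, the array type was Affymetrix MoGene-1_0-st-v1. The log2 values were deposited by the authors after RMA, as the submitters' processing notes name it. RMA scales the arrays to each other and would hide a shift common to most genes. Its version, the annotation and the build are not given in the sources used here. That the scale is log2 was read from the range, 1.71 to 14.5. Per the file headers, the authors' deposited table keeps clusters of the 10th to 100th percentile of raw signal with a fold of 1.45 or more. Its deposited columns hold each group's mean intensity (linear) and a centred log2 mean, the centring being undescribed, and its fold is that of the log2 means, higher over lower. It marks a cluster as down where Sip1 cKO was higher. Every difference given is the Sip1 cKO mean minus the control mean.

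Genes were named only through this table, with symbols updated by RefSeq names of GRCm38.p6. All 4 genes matched RefSeq promoter entries, and E-box letters were counted on both strands. The 4 genes and the lists were chosen with earlier results of these data known. The named genes were these 4, every other table row higher in Sip1 cKO, the 3 nearest rows with 1 symbol, Zeb2 and the genes of the fixed lists that the table names. Shares over all 35557 clusters came from limma (version 3.58.1, R 4.3.3, lmFit and eBayes with group as the term, Benjamini-Hochberg adjustment), tested on simulated data. The smallest two-sided p of an exact permutation test on 4 arrays is 0.333, and their number limits the precision. Alternatives were 2 scalings, the table's means, each array left out, a replicate block, a dim filter, an eBayes trend, identical rows tested once and another threshold.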

Additional observations from a re-analysis of the deposited data

How the results depend on the processing

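Pttg1, Unc13c and Cnmd stayed higher in Sip1 cKO in the 7 alternatives run for each (2 scalings, the authors' group means and each array left out), and Rarres1 in 6 of 7. Leaving out 1 array gave log2 differences of 0.70 to 1.86 for Pttg1, 0.90 to 1.32 for Unc13c, 0.48 to 1.63 for Cnmd and -0.065 to 1.49 for Rarres1, the negative value arising without control replicate 1. In the authors' deposited table they were 1.19 for Pttg1, 1.05 for Unc13c, 0.94 for Cnmd and 0.58 for Rarres1. The count of clusters called higher was 78, beside 305 lower. It was 244 with dim clusters left out (649 lower), 24 with identical rows tested once (269 lower), 159 at an adjusted p under 0.1 (553 lower), and 0 to 2 with 1 array left out (56 and 59 lower without a Sip1 cKO array, 0 lower without a control array), where a lone array is assumed to vary like the other group. With the replicate number as a block it was 1 (110 lower). A header of the authors' deposited table words the mutant as paired with the control. The sample labels give replicate numbers and do not say that equal numbers form a pair. Gaps between replicates 1 and 2 correlated little between the groups (r = 0.076 across clusters). The higher share of calls was 20.4%, against 8.19% with identical rows tested once, 0.901% with the replicate block, and 1.67% and 3.45% without a Sip1 cKO array. The cause of these shifts was not tested. With 2 arrays per group the gap between replicates sets the limit.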

Other observations

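Searched over all clusters, a step added after the values were seen, the nearest match to Pttg1 was cluster 10598081, to which the authors' table gives only the mitochondrial genome as accession. It read 8.97 and 8.42 in Sip1 cKO, against 8.09 and 6.96 in the controls, a distance of 0.056 from Pttg1 over the 4 arrays. Of the 22 rows higher in Sip1 cKO, 4 carried the mitochondrial accession, with control gaps of 0.29 to 1.14. Cluster 10598079, the largest of them at a log2 difference of 1.64, read 7.12 and 6.95 in Sip1 cKO, against 5.97 and 4.83 in the controls. Another 7 of the 22 rows had no symbol and cluster numbers between 10582882 and 10582916. Their differences were 0.74 to 1.47 and their replicate gaps at most 0.36 in Sip1 cKO and 0.39 in the controls, so they were tighter than Pttg1 in both groups.

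For Unc13c the nearest of all clusters was 10341314, at a distance of 0.014, with 6.10 and 5.64 in Sip1 cKO, against 4.98 and 4.57 in the controls. Cnmd had 10340805 as its nearest, at 0.030, with 5.68 and 5.63 in Sip1 cKO, against 4.09 and 5.20 in the controls. Rarres1 had 10342162, at 0.094, with 6.36 and 6.16 in Sip1 cKO, against 4.94 and 6.26 in the controls. These 3 clusters have no row in the authors' table and carry no name here, so whether they are transcripts or control probe sets is not known. All their values lay below the lowest array median of 6.62. Each was picked by a search of 35557 clusters on only 4 arrays, so no link to the gene is read from it.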
